A study of Homo sapiens with 16 samples.

Results

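The binding sites of INTS13, a subunit of the Integrator complex, were compared between HEK293T cells kept in glucose-free medium for 24 h and cells of a control depletion in complete medium. HEK293T is a human embryonic kidney cell line, labelled wild type in both groups. Each group has 2 labelled replicates of chromatin immunoprecipitation sequencing (ChIP-seq) and 1 deposited peak list. All unique intervals of both lists on chromosomes 1 to 22, X and Y were used: 31233 in the control list and 15639 in the starvation list, or 46872 of the 327678 intervals in the 5 lists of the series. A peak was called shared when at least 1 base lay in a peak of the other list. The series asks whether starvation, or loss of the chromatin protein HDGF, goes together with a new distribution of INTS13 on the genome. Its other lists hold INTS13 after 72 h of HDGF depletion and HDGF in control and starved cells, and input samples accompany the ChIP.

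The antibody differed between the groups. The labels name a Bethyl Laboratories antibody to INTS13 for the control cells and a Proteintech antibody for the starved cells, so starvation and antibody cannot be told apart in any difference below. INTS13 in HDGF-depleted cells was precipitated with the control antibody, and its values stand beside the others where they bear on a gene. Whether the starved cells also received a control depletion is not given in the sources used here. With 1 list per group there is no replicate error between the conditions and no test. Each share is given with its exact 95% interval (Clopper-Pearson), a measure of counting error alone. Total sequencing depth is unknown from the lists. The background inferred from their values was 6.40 reads in the control list and 7.41 in the starvation list, the latter scaled by 0.486 from 15.2. The 2 replicates of a group are labelled samples, and how they entered its list is not given in the sources used here.

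Integrator travels with RNA polymerase II. Its endonuclease module cuts the 3′ ends of the small nuclear RNAs (snRNAs) of the spliceosome, and near the starts of protein-coding genes it cuts nascent RNA and ends transcription of paused polymerase. INTS13 belongs, with INTS10 and INTS14, to a module that binds nucleic acids and transcription factors. Cells short of glucose or other nutrients shift towards autophagy and lysosomal breakdown, which transcription factors of the TFEB and TFE3 family switch on through CACGTG-centred elements (CLEAR elements) at the starts of lysosomal genes. Other basic helix-loop-helix factors bind the same letters.

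The promoters below were chosen after their values were seen, to show the difference described further on: gene starts with INTS13 in the control list only, in both lists, and in the starvation list only. Each run holds the 250 bases before the gene's start, 5′ to 3′ on the gene's strand, from RefSeq's GRCh38.p14 annotation. Capitals mark CACGTG and CCAAT on either strand. LAMP1, a major lysosomal membrane protein (chr13:113296989-113297238, plus strand), ATG3, an autophagy conjugation enzyme (chr3:112561963-112562212, minus strand), MCOLN1, a lysosomal calcium channel (chr19:7522374-7522623, plus strand), and CTSA, the lysosomal protease cathepsin A (chr20:45891085-45891334, plus strand), had a control peak only. MPI, mannose phosphate isomerase (chr15:74889792-74890041, plus strand), had a peak in both lists. SMARCD2, a chromatin remodelling subunit (chr17:63842686-63842935, minus strand), and XBP1, a transcription factor of the unfolded protein response (chr22:28800570-28800819, minus strand), had a starvation peak only.
LAMP1: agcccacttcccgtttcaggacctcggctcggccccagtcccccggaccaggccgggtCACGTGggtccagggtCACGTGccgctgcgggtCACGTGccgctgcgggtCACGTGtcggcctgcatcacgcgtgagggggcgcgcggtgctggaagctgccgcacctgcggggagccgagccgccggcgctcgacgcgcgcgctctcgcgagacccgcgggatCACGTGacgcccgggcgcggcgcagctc
ATG3: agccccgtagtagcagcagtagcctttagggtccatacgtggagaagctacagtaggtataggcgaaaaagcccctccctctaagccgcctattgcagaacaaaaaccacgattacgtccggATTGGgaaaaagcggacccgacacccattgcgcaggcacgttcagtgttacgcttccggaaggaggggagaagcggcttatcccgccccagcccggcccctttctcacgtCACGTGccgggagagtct
MCOLN1: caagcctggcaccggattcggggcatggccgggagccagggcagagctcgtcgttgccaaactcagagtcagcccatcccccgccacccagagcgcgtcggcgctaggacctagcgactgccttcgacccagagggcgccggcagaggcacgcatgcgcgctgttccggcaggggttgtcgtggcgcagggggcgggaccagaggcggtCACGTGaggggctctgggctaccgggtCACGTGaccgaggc
CTSA: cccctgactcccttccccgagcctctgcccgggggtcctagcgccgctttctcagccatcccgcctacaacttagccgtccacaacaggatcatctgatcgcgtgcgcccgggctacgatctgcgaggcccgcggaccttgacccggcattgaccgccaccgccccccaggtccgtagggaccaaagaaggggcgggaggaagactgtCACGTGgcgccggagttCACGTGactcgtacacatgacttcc
MPI: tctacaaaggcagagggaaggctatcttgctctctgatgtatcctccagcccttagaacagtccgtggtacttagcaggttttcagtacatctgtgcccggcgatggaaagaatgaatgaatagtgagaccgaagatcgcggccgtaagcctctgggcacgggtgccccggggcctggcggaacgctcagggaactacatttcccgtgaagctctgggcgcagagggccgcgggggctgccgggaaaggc
SMARCD2: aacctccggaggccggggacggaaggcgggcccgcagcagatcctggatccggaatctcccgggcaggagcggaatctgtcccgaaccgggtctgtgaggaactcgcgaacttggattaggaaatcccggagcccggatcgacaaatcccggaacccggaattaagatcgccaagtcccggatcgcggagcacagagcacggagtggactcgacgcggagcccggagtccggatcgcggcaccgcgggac
XBP1: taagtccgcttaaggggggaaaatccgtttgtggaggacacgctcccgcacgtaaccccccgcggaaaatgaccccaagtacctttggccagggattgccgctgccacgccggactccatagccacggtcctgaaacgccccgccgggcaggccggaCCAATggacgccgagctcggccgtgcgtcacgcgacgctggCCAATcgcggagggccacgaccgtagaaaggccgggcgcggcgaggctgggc

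The LAMP1 run holds CACGTG 5 times, the MCOLN1 and CTSA runs 2 times each and the ATG3 run 1 time. None of the other 3 runs holds it. The control summit lay 2.5 bp from the middle of the nearest CACGTG at LAMP1, 8.5 bp at ATG3, 1.5 bp at CTSA and 51.5 bp at MCOLN1.

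Over all deposited peaks, fewer INTS13 peaks of either list had a counterpart in the other than had none. Of the control peaks, 6924 of 31233 were found again in the starvation list (22.2%, exact interval 21.7 to 22.6), and 24309 were not. Of the starvation peaks, 6355 of 15639 lay in a control peak (40.6%, 39.9 to 41.4), and 9284 did not. The overlap went with peak strength. Of 749 control peaks that reached 10 on the −log10 q scale, 581 were found again (77.6%, 74.4 to 80.5). Of 420 starvation peaks past that value, 390 had a control counterpart (92.9%, 90.0 to 95.1). In the weakest of 10 strength classes, ranked by −log10 p, the shares were 10.7% and 23.5%, and in the strongest 60.3% and 79.8%. Between these the control share climbed except in class 3 (9.03%), whereas the starvation share stayed between 22.6% and 42.1% up to class 8. Peaks with tied values at a class border were split by position.

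**Figure D1:**
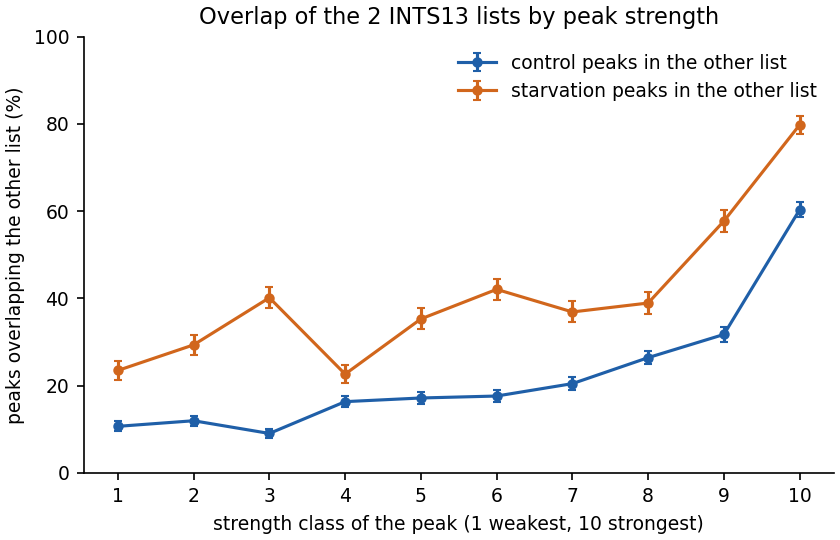
Percent of INTS13 peaks that share at least 1 base with the other list (vertical axis) in 10 equal classes of peak strength (horizontal axis, by −log10 p), with exact 95% intervals as bars. Control peaks go from 10.7% to 60.3% and starvation peaks from 23.5% to 79.8% between the weakest and the strongest class.

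Shared peaks were wider and a little stronger than the others. Control peaks found again had a median width of 453 bp and a median fold enrichment of 3.38, against 289 bp and 3.11 for those not found again. The starvation peaks inside control peaks were 465 bp wide with a median fold of 3.13, against 316 bp and 2.89 for the rest. A wider peak meets another by position more easily, and that part of the overlap was not tested. The summits of overlapping peaks lay a median of 201 bp apart. The authors' fold is read density at the summit over background. Its values follow 1 constant background per list, which differs between the lists, so folds are set side by side below without ratios.

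The strongest intervals were the same sites in both lists and lay far from genes. The 5 with the highest fold in the control list (51.5 to 54.2) were also the 5 highest in the starvation list (23.1 to 23.2). The highest summit stands at 400 reads before scaling in every list of the series, which marks a ceiling, so folds and ranks at the top are not a measure of strength. They are chr16:46388552-46392053, chr1:125178856-125180763, chr3:93470322-93470825, chr17:26603539-26604514 and chr16:46398264-46401646 in hg38, all at least 67691 bp from an annotated gene. All 5 also overlap a peak in the other 3 lists of the series. Of the 100 strongest control peaks 97 were found again and 95 overlapped a peak in all 5 lists; of the 100 strongest starvation peaks these counts were 98 and 92. 

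Both lists were packed into a few megabase-long stretches of the genome. Chromosomes 1, 13, 22 and X held 79.4% of control peaks and 65.9% of starvation peaks but 18.5% of protein-coding genes. Counted in bins of 1 Mb, 233 bins held 20 or more control peaks and together 88.8% of that list, and 150 bins held 20 or more starvation peaks and 80.3% of theirs. Of the 150, 134 were dense in the control list too. The longest control stretches ran over 34 Mb of chromosome 13 (61 to 95 Mb, 7160 peaks), 33 Mb of chromosome X (100 to 133 Mb, 3435 peaks) and 23 Mb of chromosome 1 (223 to 246 Mb, 7555 peaks). The starvation list followed the chromosome 1 stretch from 223 to 243 Mb with 3095 peaks. On chromosome 13 it was broken into several runs, of which the longest were 61 to 69 Mb with 1992 peaks and 72 to 87 Mb with 561.

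The stretch on chromosome X was thinner in the starvation list. It was unbroken over 33 Mb in the control list, while the starvation list passed 20 peaks per bin over only 3 adjoining Mb of it (102 to 105 Mb, 271 peaks) and in shorter runs, the next being 129 to 131 Mb with 65 peaks. Chromosome X held 3757 of 31233 control peaks and 797 of 15639 starvation peaks (5.10%), and 6.97% of its control peaks were found again. Chromosomes 21 and 22 took larger shares of the starvation list, 6.64% and 7.08%, against 2.63% and 3.22% of the control list. The fold and −log10 p values follow 1 constant background per list, here as elsewhere, with none set by region. Copy number of these regions in the cells was not measured here, and its part in the peak density was not tested.

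The starvation list lay closer to genes. A summit, the highest point of a peak, was within 1 kb of either end of a protein-coding gene for 1112 of 31233 control peaks (3.56%, exact interval 3.36 to 3.77) and 1416 of 15639 starvation peaks (9.05%, 8.61 to 9.51). Starvation-only peaks stood at gene boundaries in 11.3% of cases and control-only peaks in 2.96%. Outside the dense 1 Mb bins of either list, 300 of 3325 control peaks (9.02%, 8.07 to 10.0) and 544 of 1979 starvation peaks (27.5%, 25.5 to 29.5) did so. For the strongest peaks, −log10 q 10 or more, the shares were 7.08% and 20.7%. The starvation share was thus the higher one in strong peaks and away from the dense stretches too.

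Gene starts, and not gene ends, had a maximum of summits, and it was higher in the starvation list. The reference gives a strand for 15842 of the 20033 protein-coding genes (79.1%). Within 500 bp of their starts lay 432 control summits and 789 starvation summits, 2.22 and 6.62 times the number per kb between 3000 and 5000 bp away. The fullest 100 bp bin was the one just downstream of the start in both lists, with 107 control and 269 starvation summits. Within 1 kb of the start, the median summit lay 49 bp downstream in the control list and 62 bp downstream in the starvation list. Around gene ends the same ratios were 0.883 and 0.909, so neither list had a summit maximum at the 3′ ends of protein-coding genes. Of the 15842 genes, 332 had a control summit and 325 a starvation summit within 1 kb of the end. The starvation list is the shorter one, so ends also took a larger share of its summits than of the control summits.

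**Figure D2:**
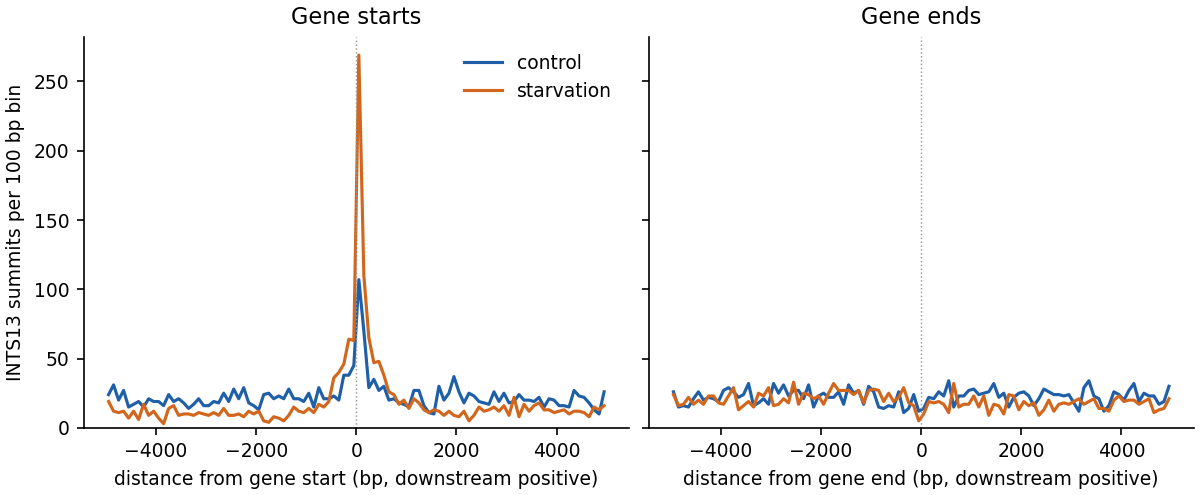
Number of INTS13 summits per 100 bp bin (vertical axis) against distance from the start (left) or the end (right) of 15842 protein-coding genes in bp, downstream positive. At starts the highest bin holds 269 starvation and 107 control summits, and at ends neither line has a maximum.

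Counted by gene, 956 of 20033 protein-coding genes had a control summit within 1 kb of an end (4.77%) and 1345 had a starvation summit (6.71%). Both lists marked 512 genes (2.56% of all), 444 genes had a control peak only (2.22%) and 833 a starvation peak only (4.16%). The 512 are 53.6% of the control genes and 38.1% of the starvation genes. In 444 of the 512 the strongest summits of both lists stood at the same end of the gene, and in 284 those peaks overlapped. About 1 gene in 5 in each class shared its summit with a neighbouring gene: 22.1% of the genes in both lists, 19.1% of the control-only and 21.6% of the starvation-only genes. These shares of all protein-coding genes are the background for the gene groups below, which were picked with earlier results of these data known.

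snRNA genes, the classical Integrator targets, had the widest gap between the lists among the 22 gene groups. Of 29 snRNA genes transcribed by polymerase II in the reference, 16 carried a control peak within 1 kb (55.2%, exact interval 35.7 to 73.6) and 3 a starvation peak (10.3%, 2.19 to 27.4). None of these 29 had a starvation peak only. The RNU11 gene (U11, minor spliceosome; chr1:28648600-28648734) had a fold of 9.19 in the control list, 4.28 in the starvation list and 9.24 after HDGF depletion. At RNU2-2 (U2; chr11:62841619-62841809) the folds were 8.11, 4.05 and 8.08, and at RNU12 (U12; chr22:42615244-42615393) they were 4.05, 3.07 and 3.85. At RNU12 the control and starvation peaks are different, non-overlapping intervals, and within 500 bp 2 snRNA genes have a starvation peak.

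The other 13 snRNA genes had no starvation peak. RNU4-2 (U4; chr12:120291759-120291903) had the highest control fold among them, 5.41, and 3.46 after HDGF depletion. The U5 genes followed: RNU5D-1 at 5.27, RNU5E-1 and RNU5F-1 at 5.13, and RNU5A-1 and RNU5B-1 at 4.19, with 3.08 to 5.97 after HDGF depletion. RNU4ATAC, the U4 of the minor spliceosome, stood at 4.05, and RNU7-1, whose RNA processes histone transcripts, at 2.70. The remaining 5 are U1 variant genes, RNVU1-14 at 5.27, RNVU1-8 at 4.46, RNVU1-15 at 4.19, RNVU1-7 at 3.78 and RNVU1-6 at 3.24. Their sequences are nearly identical copies, so reads may be placed at the wrong copy and these 5 are uncertain. All 13 had a peak in the HDGF-depletion list, which is longer (105994 peaks, 19.1% of protein-coding genes) and marks 18 of the 29.

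The gap was about as wide at equal list length and away from the dense stretches. With each list held to its 15639 strongest peaks, 15 snRNA genes kept a control peak, 3 a starvation peak and 9 a peak after HDGF depletion. Outside dense 1 Mb bins the counts were 15 control and 2 starvation genes of 22. Peaks of −log10 q 10 or more stood at 7 snRNA genes in the control list and at 0 in the starvation list. No replicate shows how far these small counts vary.

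**Figure D3:**
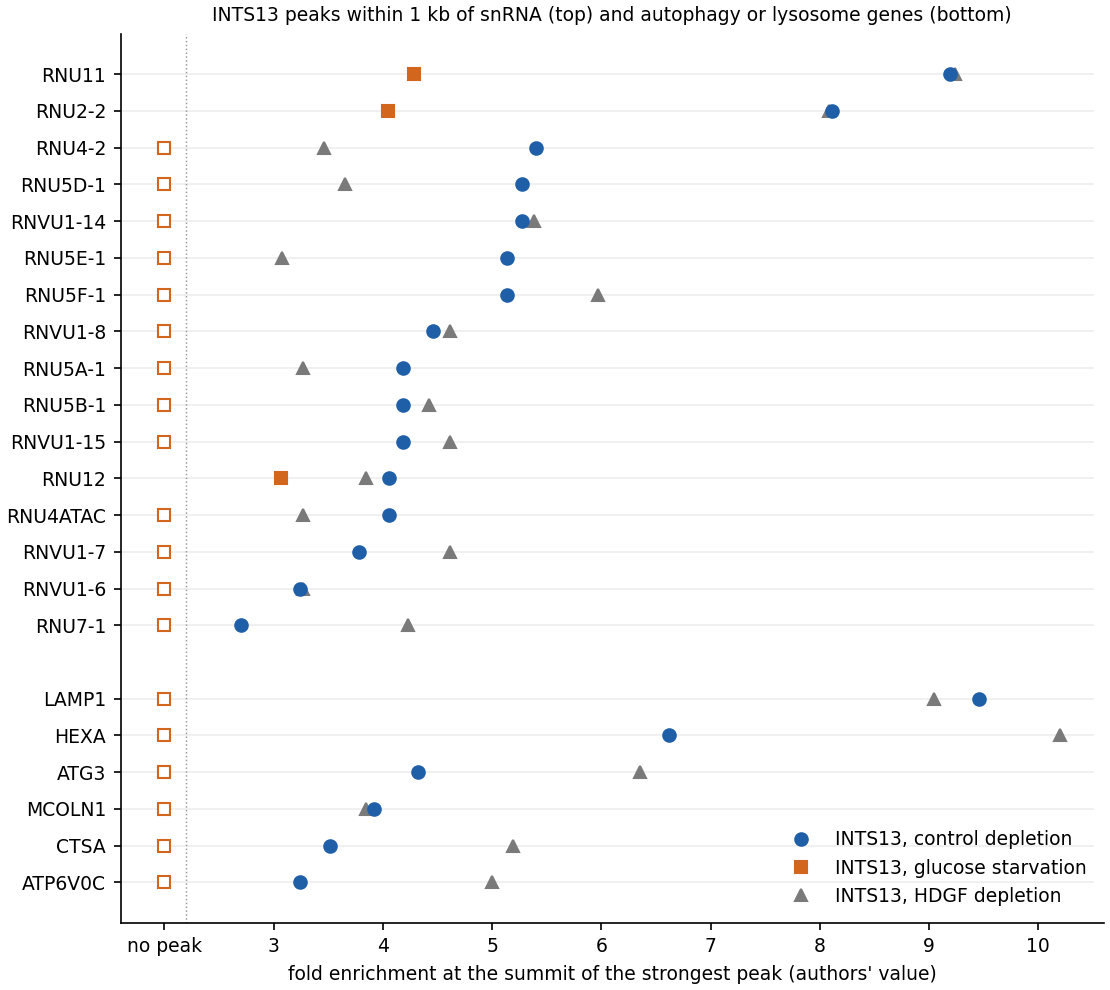
Fold enrichment at the strongest INTS13 summit (horizontal axis, the authors' value) within 1 kb of each snRNA gene and each autophagy or lysosome gene with a peak, in the control (circles), starvation (squares) and HDGF-depletion lists (triangles); open squares mark genes with no starvation peak. Of these 22 genes, 3 snRNA genes and no lysosome gene have a filled square.

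Autophagy and lysosome genes had control peaks and no starvation peak. Of 43 listed genes, 6 had a control peak (exact interval 5.30% to 27.9%) and 0 a starvation peak (exact interval up to 8.22%). These intervals overlap, and the second holds the 6.71% of all protein-coding genes. LAMP1 had a control fold of 9.46, with the highest −log10 q of the 444 control-only protein-coding genes, and 9.04 after HDGF depletion. The nearest starvation summit was 18520878 bp away. The last dense starvation run of chromosome 13 ended at 95 Mb, so the distance spans a long stretch without starvation summits and is not particular to LAMP1. HEXA, a lysosomal hexosaminidase subunit (chr15:72340924-72376014), had 6.62 in the control list and 10.2 after HDGF depletion. The other 4 were ATG3 (4.32 and 6.35), MCOLN1 (3.92 and 3.85), CTSA (3.51 and 5.20) and ATP6V0C, a subunit of the proton pump that acidifies lysosomes (3.24 and 5.00). The ATP6V0C peak (chr16:2520146-2520435) lay at the gene's higher-coordinate end. AMDHD2, a control-only start on chromosome 16, had the same folds in both lists, so the peak may be that of the AMDHD2 start. All 6 remained at equal list length, at which the HDGF-depletion list marked 7. With a window of 2500 bp the counts were 9 control and 3 starvation genes, and counting any base of a peak gave 6 and 1.

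Ranked by control −log10 q, the first 8 control-only genes began with LAMP1 and HEXA. CLCN6, a chloride-proton exchanger of late endosomes, had a control fold of 5.68. SUMF1, which activates the sulfatases that work in lysosomes, had 5.27, as did BAX, a pore former of programmed cell death, and WASHC2A, part of a complex for endosomal sorting that has near-identical copies. UBE2Q1, a ubiquitin-conjugating enzyme, had 6.35. The peak assigned to SIRT4, a mitochondrial sirtuin (5.41, chr12:120291252-120291926), is the RNU4-2 peak. Apart from SIRT4, all of them had a fold between 4.43 and 10.2 in the HDGF-depletion list.

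The letters at these starts differed as well. Start windows of 300 bases (250 before and 50 after the start) from RefSeq were searched on both strands for 11 motifs, with 1 start per gene for 15842 genes. CACGTG, the CLEAR and E-box core, was in 59 of 271 starts with a control-only peak (21.8%, exact interval 17.01 to 27.2), 42 of 315 with a peak in both lists (13.3%, 9.78 to 17.6), 64 of 626 with a starvation-only peak (10.2%, 7.96 to 12.9) and 8.82% of all starts. The longer TCACGTG, added after seeing this, was in 19.2% of control-only, 8.25% of shared, 5.59% of starvation-only and 4.78% of all starts. Outside the dense bins CACGTG was in 38 of 118 control-only starts (32.2%, 23.9 to 41.4) and 38 of 352 starvation-only starts (10.8%, 7.75 to 14.5). Restricted to peaks of −log10 q 5 or more it was in 34 of 99 and 28 of 234.

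The distance from summit to CACGTG differed between the sets as well. Where a window held CACGTG, the summit was within 50 bp of one in 25 of 59 control-only starts (42.4%, 29.6 to 55.9), with a median distance of 65.5 bp. In starvation-only starts this was so in 8 of 64 (12.5%, 5.55 to 23.2), with a median of 234 bp. In starts shared by both lists 7 of 42 control summits were that close. These are counts of genes, and neighbouring genes can share 1 summit. FAM118B and RPUSD4 (2.5 bp each) and CTSA and NEURL2 (1.5 bp each) are examples among the control-only starts. The exact intervals, here and for the shares of starts above, treat such genes as separate and are too narrow. The 59 genes included LAMP1, ATG3, MCOLN1 and CTSA of the autophagy and lysosome list, and ATF4, the central transcription factor of the integrated stress response (4.05). Of the 59, 43 also had a start peak in the HDGF-depletion list (72.9%), and of all 271 control-only starts 182 did (67.2%). A match of letters is a description and shows no bound factor.

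Starts in both lists and starvation-only starts differed in other letters. AAGATGGCG, the YY1 core, was in 37 of 315 shared starts (11.7%, 8.41 to 15.8), against 5.17% of control-only, 4.31% of starvation-only and 2.69% of all starts. TATAAA was in 4.13% of shared starts (2.22 to 6.95) and 9.75% of all. Starvation-only starts had the highest median GC content, 67.7%, against 65.7% for shared, 61.7% for control-only and 62.7% for all starts. GGGCGG, the GC box of SP factors, was in 71.1% of starvation-only, 69.2% of shared, 62.4% of control-only and 58.3% of all starts. CCGGAAG, the ETS core, was in 18.5% of control-only and 11.5% of starvation-only starts, with 14.2% over all. For these last pairs of GGGCGG and CCGGAAG the intervals of control-only and starvation-only starts overlapped slightly. For the octamer ATGCAAAT (1.72% of all starts), the PSE pattern of snRNA genes (0.0505%), the ZNF143 core ACTACAA (3.13%), the NRF1 core GCATGCGC (4.28%), the ATF4 composite site TGATGCAAT (0.158%) and CCAAT (36.4%), the interval of every peak set overlapped that of the other two. CCAAT was in 30.7% of starvation-only starts (27.1 to 34.4), below the 36.4% of all starts (35.6 to 37.1). TCACGTG contains CACGTG, so their counts overlap.

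**Figure D4:**
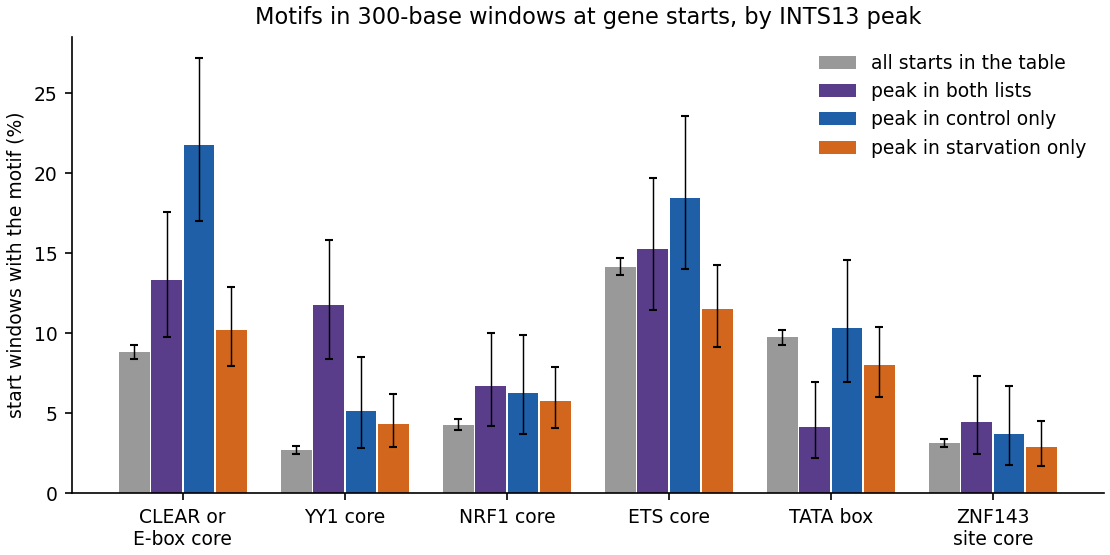
Percent of 300-base windows at gene starts that hold each of 6 motifs (vertical axis), for all 15842 starts and for starts with an INTS13 summit within 1 kb in both lists (315), control only (271) or starvation only (626); bars show exact 95% intervals. The CLEAR or E-box core stands at 21.8% in control-only starts and 10.2% in starvation-only starts.

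The 10 strongest starvation-only genes by −log10 q all had the summit 28 to 218 bp from the gene's start. SMARCD2 led with a starvation fold of 8.79, and no control summit lay nearer than 242750 bp. TAF4, a subunit of the general factor TFIID, had 7.52, RUFY1, an endosomal adaptor, 6.25, and KMT5B, a histone H4 methyltransferase, 5.61. IRAK1, a kinase of interleukin receptor signalling, and SMOC1, a secreted matrix protein, had 5.50 each. CEBPA, a transcription factor of metabolic and blood cells, SMURF2, a ubiquitin ligase of TGF-beta signalling, and YIPF6, a Golgi protein, had 5.32 each, and DMWD had 5.26. The HDGF-depletion list held a peak at KMT5B (3.46), CEBPA (5.20) and YIPF6 (2.89) and none at the other 7.

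Among the 8 genes of both lists with the highest control −log10 q, GET4, which helps insert tail-anchored membrane proteins, had folds of 9.19 in the control and 3.88 in the starvation list. The peaks assigned to TAF12 (9.19 and 4.28) and WDR74 (8.11 and 4.05) are those of RNU11 and RNU2-2. TM2D1 had 7.84 and 5.50, KDM5C, a histone demethylase, 6.62 and 4.74, and SPANXB1, a testis gene with near-identical copies, 6.89 and 6.65. MPI had 6.35 and 6.42, with the starvation fold the higher one. DNAJC8, a splicing-related chaperone, had its control peak at the start (6.35) and its starvation peak at the opposite end (2.95), and its start window holds CACGTG 2 times.

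Ribosomal protein genes formed a weaker control group. Of 79 genes 14 had a control peak (17.7%, exact interval 10.0 to 27.9) and 3 a starvation peak (3.80%, 0.790 to 10.7). RPL39 was in both lists (3.65 and 3.13), RPL6 and RPL10 were starvation only (3.07 each), and 13 genes were control only. The strongest RPL39 peaks of the lists did not overlap. The highest control folds were 4.32 at RPL5, 3.78 at RPS2, 3.65 at RPS6 and 3.51 at RPL3. Counting only peaks of −log10 q 5 or more left 4 and 0 genes, and equal list length 9 and 3.

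Cholesterol and fatty acid synthesis genes had starvation peaks and no control peak. Of 29 genes 0 had a control peak (exact interval up to 11.9%) and 5 had a starvation peak (17.2%, exact interval 5.85 to 35.8). The intervals overlap and hold the shares of all protein-coding genes, 4.77% and 6.71%. SREBF2, the transcription factor that switches the pathway on, had 3.93. FASN, fatty acid synthase, and FDPS, farnesyl diphosphate synthase, had 3.01 each, and INSIG1, which retains the SREBP factors, had 2.66. The FDPS starvation peak (chr1:155320866-155321257) lay beyond the gene's higher-coordinate end at 155320665. FDPS and INSIG1 also had a peak after HDGF depletion (3.85 each), where the control antibody was used, and SREBF2 and FASN had none.

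Genes of the starvation response had similar counts in both lists. Of 39 genes of the integrated stress response and glucose starvation, 5 had a control peak (12.8%, exact interval 4.30 to 27.4). A starvation peak stood at 6 (15.4%, 5.86 to 30.5), and only 2 genes had both. These intervals hold the shares of all protein-coding genes, 4.77% and 6.71%. SESN2, a stress-induced regulator of mTOR, had 4.19 and 4.57, and DDIT4, another mTOR regulator, 3.11 and 2.89. At DDIT4 the control and starvation peaks are different, non-overlapping intervals. ATF4 (4.05), CTH, a cysteine synthesis enzyme (2.97), and TXNIP, a glucose-sensitive regulator of glucose uptake (2.84), were control only. XBP1 (4.28), SLC7A5, an amino acid transporter (3.36), CEBPB (3.18) and STC2 (3.13) were starvation only. Among 23 AMPK and mTOR genes TSC1 and PRKAG2 were control only (3.65 and 3.51), and PRKAA2, RPS6KB1 and TSC2 starvation only (3.47, 3.41 and 3.01). The TSC2 peak (chr16:2090028-2090610) lay beyond the gene's higher-coordinate end at 2089491. Of 26 glycolysis genes ALDOA and PKM were in both lists and PFKL was starvation only (3.59). The strongest ALDOA peaks of the lists did not overlap.

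Of 34 pausing and termination genes, 4 had a control peak (11.8%, exact interval up to 27.5) and 7 a starvation peak (20.6%, 8.70 to 37.9), and these intervals overlap. CPSF2, a subunit of the cleavage and polyadenylation factor, had 6.08 and 4.98, and POLR2A, the largest subunit of polymerase II, had 4.05 and 4.92. NELFCD, of the pausing factor NELF, WDR82, CDK13, MEPCE and CPSF1 were starvation only (3.01 to 3.41), and CSTF2 and HEXIM1 control only (2.70 and 3.24). Of 20 Integrator genes, INTS1 (2.61) and INTS14 (3.07) had a starvation peak and none a control peak. HDGFL3 (2.84) was the only member of the 5-gene HDGF family with a peak, in the starvation list.

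The remaining groups differed by 2 genes or fewer. The cell cycle list held 3 control and 5 starvation genes of 38, with CCND3 (4.73 and 5.55), CDC25C (4.59 and 5.32) and MCM5 (4.05 and 3.65) in both. Immediate early genes stood at 3 and 5 of 37, with JUN (3.11 and 3.47) and BTG2 (3.78 and 2.55) in both and SRF starvation only (4.11). Oxidative phosphorylation had 4 and 3 of 32, aminoacyl-tRNA synthetases 3 and 2 of 20, and zinc finger genes and NAB partners 1 and 2 of 24, with MAZ in both (4.73 and 3.82) and ZNF592 starvation only (4.69). Replication-dependent histone genes, Integrator targets whose RNA ends are processed through U7, had 1 control and 0 starvation genes of 58. Cilia genes had 1 and 0 of 40, and small RNAs of polymerase III 1 and 0 of 21. Markers of other tissues had few peaks: liver 1 and 0 of 16, blood 0 and 0 of 20, muscle 1 and 3 of 17, and neuron and glia 1 and 1 of 14.

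**Figure D5:**
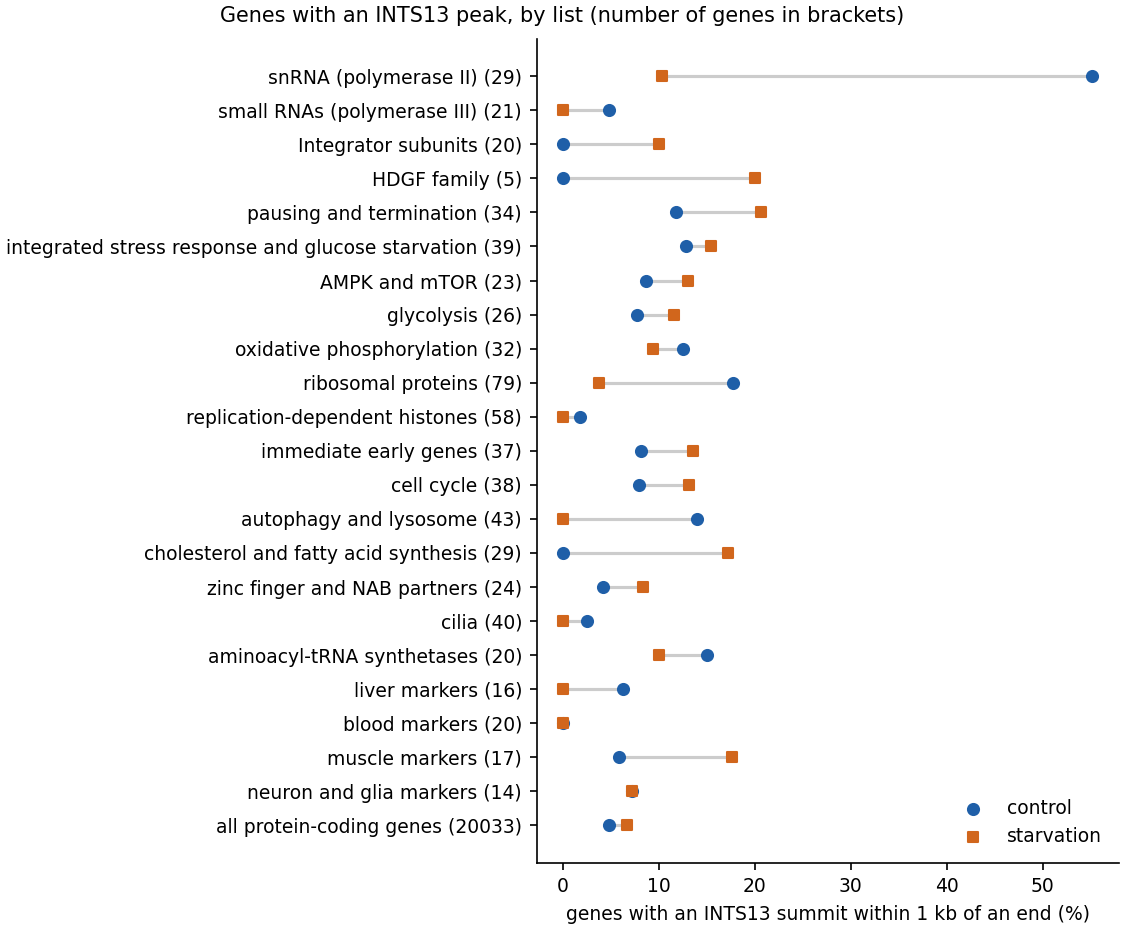
Percent of the genes of each list (horizontal axis) with an INTS13 summit within 1 kb of an end in the control list (circles) and in the starvation list (squares); the number of genes is in brackets. snRNA genes go from 55.2% to 10.3%, while all protein-coding genes stand at 4.77% and 6.71%.

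HDGF, a chromatin protein, was set beside the INTS13 peaks. HDGF peaks of starved cells covered 83.6% of the control INTS13 peaks that were found again (exact interval 82.7 to 84.5) and 28.7% of those that were not (28.2 to 29.3). HDGF peaks of control cells covered 68.5% (67.4 to 69.6) and 38.3% (37.7 to 39.0) of the same peaks. Of the starvation-only INTS13 peaks, 64.6% (63.6 to 65.5) lay in an HDGF peak of starved cells and 23.7% (22.9 to 24.6) in one of control cells. The HDGF lists used 1 antibody in both conditions. They are longer than the INTS13 lists, with 106674 control and 68138 starvation peaks. At least 1 shared base counted as covered, and control peaks found again are wider than the others (median 453 against 289 bp). Of those found again, 3693 overlap a peak in all 5 lists and so meet HDGF by definition. The part of list length, peak width and these common intervals in the shares was not tested.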

How the data were processed

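ChIP-seq of INTS13 and HDGF and of input DNA was made from 16 HEK293T samples in 8 groups of 2 labelled replicates, 6 of them input. Per the submitters' processing notes, the reads went through FastQC, Trimmomatic, Bowtie, Picard and MACS2 on hg38; the sources used here give no versions and do not say how replicates and input entered the 1 deposited list per ChIP group. In each deposited list the authors give a score, a fold enrichment ratio, the offset of the summit within the peak, and its significance as −log10 p and −log10 q.

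Of these, the fold, −log10 p, −log10 q and summit were used. Intervals off chromosomes 1 to 22, X and Y were dropped (31249 deposited and 31233 used in the control list, 15646 and 15639 in the starvation list). As inferred from the values, all 81 distinct pairs of fold and −log10 p under 100 in the control list, and all 132 in the starvation list, were within 0.01 of a Poisson model with 1 background per list, 6.40 and 7.41 reads, the starvation reads being scaled by 0.486. The highest summit came to 400 reads before scaling in each of the 5 lists, 194 after scaling in the starvation list, as under a ceiling on reads per position. Genes and start windows come from RefSeq GRCh38.p14 tables. Genes were assigned every summit at most 1 kb from their start or end. Python 3.11 with pandas 2.3.3 and scipy 1.17.1 was used, and the interval code was tested on simulated data. Groups were compared by counts and exact intervals, with no test, since each has 1 list.

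Named are the 8 shared, 8 control-only and 10 starvation-only protein-coding genes of highest −log10 q, all snRNA, Integrator and HDGF family genes with a peak, up to 5 members of each other list, and the 5 strongest intervals; other names were chosen after their values were seen, and 1 gene that the rule names is not reported here. The members, the 22 gene lists and the 11 motifs were chosen with earlier results of these data known. Alternatives changed the overlap rule, threshold, list length, chromosomes, window and gene end.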

Additional observations from a re-analysis of the deposited data

How the results depend on the processing

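No paired analysis was possible because each group has 1 deposited list, and for the same reason no replicate could be left out. All values are counts or shares, so none could change sign, and some orders between them turned. Genes in both lists outnumbered control-only genes (512 and 444), yet not at a −log10 q of at least 5 or 10, outside dense bins, or without intervals in all 5 lists (433 and 483). The share of starvation peaks with a counterpart passed 50% at both thresholds, and at equal list length the control share was the higher one. The share of control peaks in the starvation list, 22.2%, became 9.32% when 50% of both intervals had to be common, 13.1% for summits within 250 bp, 25.4% and 44.3% at a −log10 q of at least 5 and 10 in both lists, 32.0% at equal list length, 22.7% without chromosomes 1, 13, 22 and X, 9.89% without intervals in all 5 lists and 11.7% outside dense 1 Mb bins. For starvation peaks in the control list, 40.6%, the same settings gave 18.6%, 26.1%, 51.3%, 67.9%, 30.6%, 25.8%, 21.7% and 19.1%. Genes in both lists (512) numbered 150 and 32 at a −log10 q of at least 5 and 10, 229 without the 4 chromosomes, 776 with a 2500 bp window, 314 at gene starts only and 158 outside dense bins. Control-only genes (444) numbered 153, 34, 208, 714, 278 and 190 there and 232 at equal length. Starvation-only genes (833) numbered 293 and 75 at the thresholds and 458 outside dense bins. snRNA genes were 7 control and 0 starvation at a −log10 q of at least 10. Summits at gene boundaries were 6.42% (control) and 14.9% (starvation) without the 4 chromosomes, 2.18% and 6.54% at 500 bp, 7.60% and 14.2% at 2500 bp, and 9.02% and 27.5% outside dense bins; the starvation share was the higher in each. The gene-start counts fall partly by construction, since 79.1% of genes have a strand. Of 68 such values 26 stayed within 1.5 times the main count or within its interval. The dense-bin split, the ribosomal, lysosome and CACGTG settings were chosen after seeing the data. CACGTG stood at 16.8% to 38.1% of control-only and 9.77% to 13.6% of starvation-only starts over the settings run. The lists hold called peaks only, so a gene without a peak may carry signal under the threshold.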

Other observations

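Of 154 genes annotated as snRNA of any kind, 25 had a control and 6 a starvation peak within 1 kb, 1 of them a starvation peak only, and of 1199 snoRNA genes 47 and 12, with 39 in the control list only. Pseudogenes stood at 433 and 207 of 15580, and long noncoding RNA genes at 678 and 605 of 18303. Transfer RNA genes had 7 and 5 of 443.

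Gene bodies and the space between genes held most summits of both lists: 39.7% and 56.7% of control summits, and 37.9% and 53.0% of starvation summits. On chromosome 9, 67.6% of control peaks and 85.8% of starvation peaks were shared, and a single 1 Mb bin (79 to 80 Mb) held 516 control and 427 starvation peaks. The HDGF-depletion list had a start peak at 82.5% of the starts shared by both lists (exact interval 77.9 to 86.6), 67.2% of the control-only starts (61.2 to 72.7) and 45.7% of the starvation-only starts (41.7 to 49.7).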
